A study of Mus musculus with 2 samples.

Results

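Isolated H3K4me1 regions were those on mouse autosomes with at least 50 kb free of any other called region on both sides and a length above 501 bases, the shortest length in the list. The rule left 1672 regions of the 48130 in the whole list, or 4.16% of the 40236 autosomal regions over 501 bases (Wilson 95% interval 3.96 to 4.35%, counting error only). They were thus chosen by measured gaps and length, and both are given as a description with no test. The regions came from 1 chromatin immunoprecipitation sequencing (ChIP-seq) library of bone marrow pre-B cells, in which histone H3 carrying 1 methyl group on lysine 4 was pulled down (antibody Abcam Ab8895). They were called against 1 input library prepared with no antibody. Both libraries came from B6 mice labelled RAG1-/- that carried an already rearranged IgM transgene (RAG-/-µ+), were 6 to 14 weeks old and included males and females. Such mice cannot rearrange their own antigen receptor genes, so the cells are a model of the pre-B stage driven by the transgene, and the labels do not say whether marrow of several mice was pooled. Per the file header, 50945360 tags made up the H3K4me1 library; the input depth is not given in the sources used here.

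Monomethylation of histone H3 at lysine 4 is laid down mainly by the MLL3 and MLL4 methyltransferases. It marks enhancers, both primed and active, and the flanks of active promoters. Enhancers of genes that define a cell type often sit in groups, while a marked site far from any other is the simplest case, a lone candidate element. The mark alone does not tell a primed element from an active one. Genes, transcription starts and DNA sequence at these positions were not analysed here, because no annotation or genome of mm9, the build of the file, was used.

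Isolated regions were scarce, but the stretches in which they stood alone were large. They covered 2.90 Mb, or 2.69% of the 107.9 Mb covered by all autosomal regions. Measured from the neighbour before to the neighbour after, with shared gaps counted once, the stretches around them came to 933.9 Mb. This was 38.9% of the 2401 Mb between the first and last region of each autosome, summed. The rule requires at least 50 kb free on both sides, so wide stretches follow from it in part. No like share was computed for other regions. A much larger number of regions over 501 bases, 8376 (20.8%), had a gap of at least 50 kb on 1 side only and thus stood at the edge of a marked stretch.

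The lengths of isolated regions were short and narrowly spread. The median was 1427.5 bases (binomial 95% interval of the median 1353 to 1499), with 25th and 75th percentiles of 910 and 2230 bases. The 38564 autosomal regions over 501 bases that had a neighbour within 50 kb showed a median of 1791 bases (interval 1770 to 1811) and percentiles of 1081 and 3028. The isolated median was 0.797 times the other, and the intervals did not overlap. With 1 library no spread between replicates could be set beside this difference, and the intervals treat regions as independent.

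The shortfall of isolated regions grew with length. Of the isolated regions, 521 (31.2%, Wilson 95% interval 29.0 to 33.4%) were at least 2000 bases long, beside 44.1% of all autosomal regions over 501 bases. At 3000 bases or more the shares were 10.5% of isolated regions (9.09 to 12.03%) and 25.4% of the others (24.9 to 25.8%). At 5000 bases or more, 30 isolated regions remained (1.79%, 1.26 to 2.55%), beside 10.9% of the others (10.6 to 11.2%). A length of 10000 bases was reached by 1 isolated region and by 1016 of the others. At the short end, 514 isolated regions (30.7%) were under 1000 bases, and 20.5% of the others were.

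**Figure D1:**
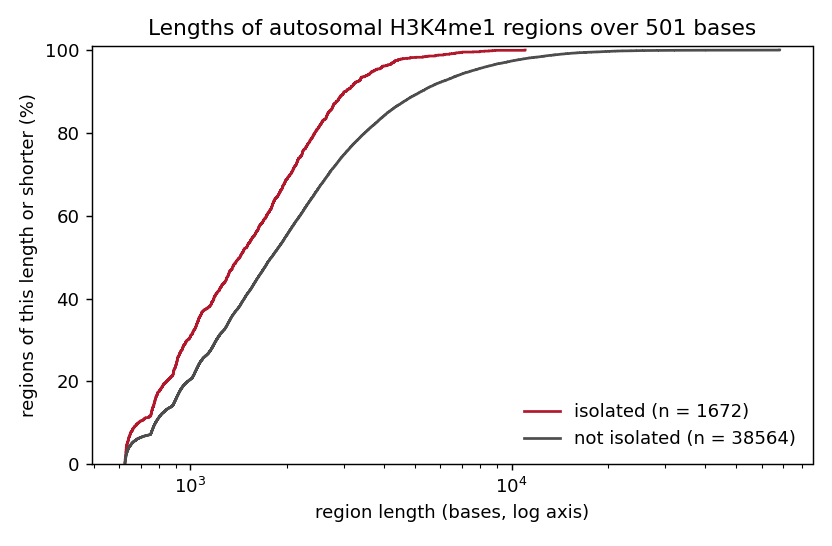
Cumulative share of autosomal H3K4me1 regions over 501 bases (percent, vertical axis) by region length (bases, log axis), for 1672 isolated regions (red) and 38564 regions with a neighbour within 50 kb (grey). The red curve lies to the left of the grey one and ends at 11029 bases, and the grey one runs on to 68368 bases.

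The longest isolated regions stood near the lower limit of isolation. The longest, on chromosome 9 from 71734994 to 71746022, was 11.03 kb long, with gaps of 51.9 kb before and 52.4 kb after it. A region of 8.89 kb on chromosome 12 (60228036 to 60236921) had gaps of 59.0 and 69.3 kb. The next, on chromosome 9 (75005733 to 75014474), was 8.74 kb long with gaps of 56.5 and 65.2 kb. All of these were thus single broad blocks with a free stretch only slightly over the threshold on both sides.

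Others among the 10 longest had a near neighbour on 1 side and an open stretch on the other. A region of 8.51 kb on chromosome 1 (178657623 to 178666130) had 845.6 kb before it and 54.3 kb after it. On chromosome 14, a region of 7.59 kb (37680342 to 37687936) followed 2046.6 kb without a called region and lay 56.8 kb from the next. A second on that chromosome, 6.99 kb long (58688839 to 58695830), lay 69.8 kb from the region before and 1123.5 kb from the one after. These 3 regions stood at the border of long stretches without a called region. Signal and sequence within such stretches were not examined.

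The other 4 of the 10 varied in how far they stood from their neighbours. The region on chromosome 2 (132334695 to 132342908) was 8.21 kb long with gaps of 213.2 and 53.4 kb, and the one on chromosome 15 (85233431 to 85241406) was 7.98 kb long with gaps of 64.9 and 184.7 kb. On chromosome 7, regions of 7.98 kb (151423520 to 151431496) and 7.02 kb (122360330 to 122367347) were the only ones of the 10 with both gaps above 100 kb. Their shorter gaps were 198.8 and 175.5 kb. Of the 30 isolated regions of at least 5000 bases, 2 had both gaps at or above 200 kb. These were a region of 5.40 kb on chromosome 5 (142513384 to 142518781) and one of 5.02 kb on chromosome 6 (138085939 to 138090962).

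Distances to the neighbours varied widely. The shorter of the 2 gaps had a median of 83.7 kb, with 25th and 75th percentiles of 61.2 and 131.4 kb, and the longer one a median of 210.0 kb, with percentiles of 114.2 and 520.2 kb. Both gaps reached 100 kb for 618 regions (37.0%), 200 kb for 228 (13.6%), 500 kb for 65 (3.89%) and 1000 kb for 17 (1.02%). In these counts a missing side at a chromosome end counts as far. The median and percentiles of the longer gap cover only the 1662 regions with a neighbour on both sides. The gaps were often unequal: the longer was at least 3 times the shorter for 558 of the 1662 regions with a neighbour on both sides (33.6%, Wilson 95% interval 31.3 to 35.9%). The shorter gap came before the region in 48.7% of these, a share that neighbouring isolated regions with a common gap both enter.

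**Figure D2:**
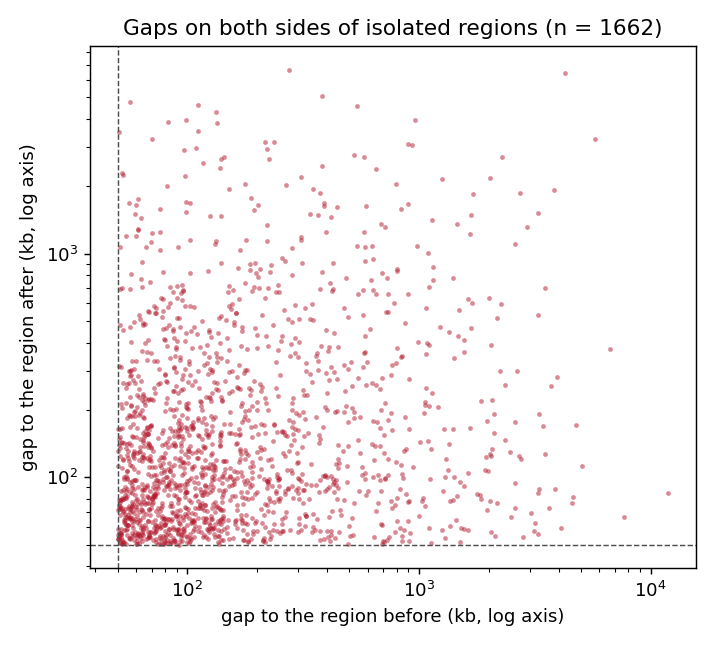
Gap to the region before (kb, log axis) against gap to the region after (kb, log axis) for the 1662 isolated regions with a neighbour on both sides, 1 point each, with dashed lines at the 50 kb limit. Points crowd toward the corner at 50 kb, where the median of the shorter gap is 83.7 kb, and spread to gaps of several Mb on either axis.

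The 10 most isolated regions ranged in length from 642 to 4607 bases. The region farthest from any other lay on chromosome 1 from 113760200 to 113760987, 788 bases long, with 4279.2 kb free before it and 6445.2 kb after it. The second, on chromosome 14 (112074494 to 112075424), was 931 bases long, with 5751.49 and 3268.877 kb free. Next came a region on chromosome 5 (60387376 to 60389168), 1793 bases long, with 2276.265 and 2716.598 kb free. Each of these stood by itself in a stretch of several Mb.

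Among the other 7, the shorter gap ran from 1493.68 to 2022.65 kb. The fourth most isolated, of 678 bases on chromosome 16 (67620641 to 67621318), and the next, of 952 bases on chromosome 7 (11079534 to 11080485), both stayed under 1000 bases. So did a region of 708 bases on chromosome 18 (28558521 to 28559228) and a region of 642 bases on chromosome 8 (6481958 to 6482599). A region of 1947 bases on chromosome 14 (83316876 to 83318822) and a region of 1263 bases on chromosome 5 (50449193 to 50450455) were longer. The region on chromosome 3 (5572259 to 5576865) was the longest of the 10, at 4607 bases. It was the first called region of its chromosome, so its isolation was measured on 1 side only, by a gap of 1925.925 kb. In all, 7 isolated regions were first and 3 last on their autosome.

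Beyond the 50 kb limit, isolated regions with the widest gaps were somewhat shorter. Median length was 1568.5 bases (interval 1442 to 1660) for the 710 regions with a nearest gap of 50 to 75 kb and 1301.5 bases (1207 to 1446) for the 344 at 75 to 100 kb. It was 1410.5 bases (1258 to 1540) for the 390 at 100 to 200 kb, 1295 bases (1051 to 1503) for the 163 at 200 to 500 kb and 1147 bases (931 to 1513) for the 65 at 500 kb or more. The 962 regions with both gaps at or above 75 kb had a median of 1319 bases (1253 to 1425), below the interval of the 50 to 75 kb class. Taken singly, each class from 75 kb upward had an interval that overlapped that of the 50 to 75 kb class. Neighbouring classes from 75 kb upward also overlapped, so an order among them could not be resolved at these numbers. Over the 1672 regions, which share 1 library, the Spearman rank correlation of length with the nearest gap was -0.10, a weak negative value given as a description. With the longer gap it was -0.02, over the 1662 regions with a neighbour on both sides.

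On the other side of the limit, regions over 501 bases with a nearest gap of 25 to 50 kb had a median of 1573 bases (1489 to 1622), within the interval of the 50 to 75 kb class. Medians were 1693 bases at 10 to 25 kb, 1927 at 2.5 to 10 kb and 1773 under 2.5 kb. The median thus fell between 10 and 50 kb already, with no step at the 50 kb limit. With both sides in view, the median was 1874 bases (1851 to 1898) for regions with neither side free for 50 kb, 1557 (1524 to 1590) with 1 side free and 1427.5 with both.

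**Figure D3:**
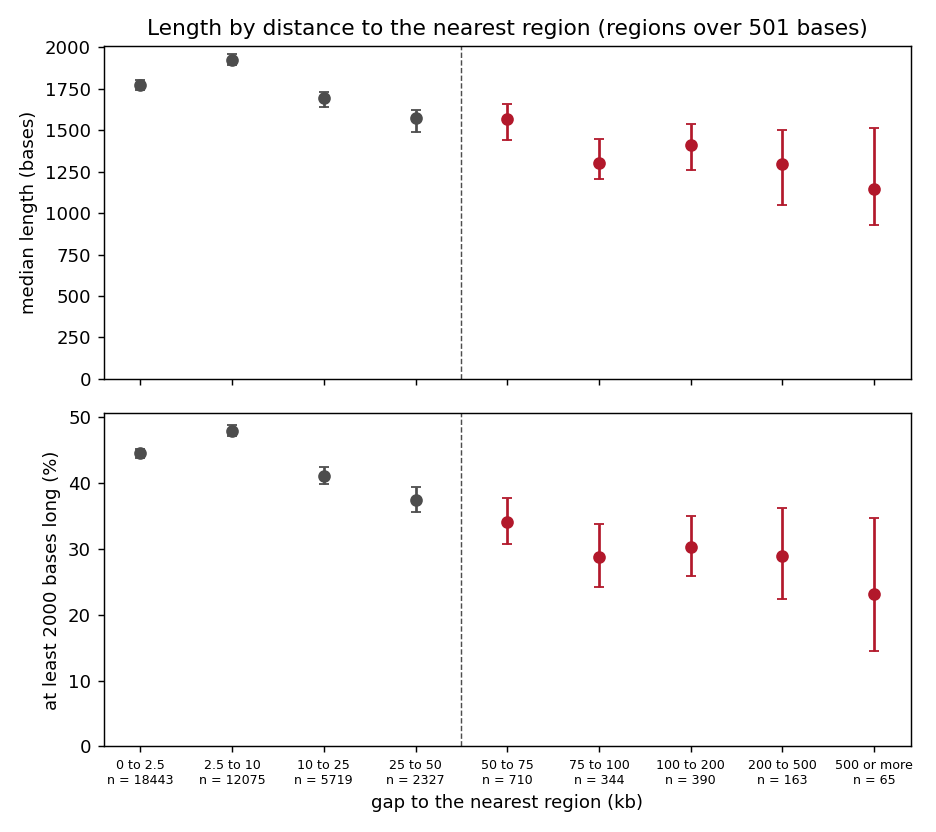
Median length in bases (upper panel, binomial 95% intervals) and percent of regions at least 2000 bases long (lower panel, Wilson 95% intervals) for autosomal regions over 501 bases, by distance to the nearest region in kb, with the number of regions under each class. The dashed line is the 50 kb limit and isolated classes are red; the median falls from 1927 bases at 2.5 to 10 kb to 1573 at 25 to 50 kb and 1568.5 just past the limit.

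The gap limit passed through a continuous range of gaps, while the length limit fell in a step of the list, between 501 and 626 bases. The 5 isolated regions just inside had nearest gaps of 50.003 to 50.069 kb and lengths of 913 to 3726 bases, and 2 of them, on chromosome 2 (145836020 to 145837372 and 145887429 to 145889112), were each other's neighbour. The 5 regions just outside had nearest gaps of 49.943 to 49.999 kb and lengths of 929 to 6142 bases. For length, 8 isolated regions had 626 bases, the shortest length inside. Outside it were the 483 isolated regions of exactly 501 bases. Their shorter gap had a median of 90.3 kb (interval 84.0 to 99.0), beside 83.7 kb (80.9 to 86.8) for the isolated regions over 501 bases.

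Isolated regions made up the largest share on chromosomes of low region density. The share among regions over 501 bases was highest on chromosome 14, at 5.92% (89 of 1504, Wilson 95% interval 4.83 to 7.23%), and lowest on chromosome 11, at 1.95% (60 of 3081, 1.52 to 2.5%). Chromosomes 18, 1 and 13 followed chromosome 14 at 5.79, 5.69 and 5.47%, with overlapping intervals. Chromosomes 19 and 7 came next to chromosome 11, at 2.29 and 2.53%, also within overlapping intervals. Across the 19 autosomes, which share 1 library, the rank correlation of this share with regions per Mb was -0.81. Both measures are made from the same region positions, so a negative relation is built in to some extent.

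Counted per Mb of span, the spread was smaller and the order changed. The number of isolated regions was 0.694 ± 0.119 per Mb (mean ± SD over 19 autosomes, which are not replicates). Chromosome 13 had the most, 0.904 per Mb, followed by chromosome 9 with 0.870, and chromosome 7 had the fewest, 0.416 per Mb. Chromosome 7 had a region density of 19.2 per Mb, close to the 19.4 of chromosome 13, yet its isolated share was 2.53% (1.98 to 3.23%) beside 5.47% (4.54 to 6.57%). The medians of length lay between 1197 bases on chromosome 2 and 1719.5 on chromosome 11. On all 19 autosomes the isolated regions had a shorter median than the regions with a neighbour within 50 kb. On chromosomes 3, 6, 7, 11, 12, 13, 14, 18 and 19, the binomial interval of the isolated median held the other median. The difference was thus not resolved on these, and on the remaining autosomes the interval lay below the other median.

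**Figure D4:**
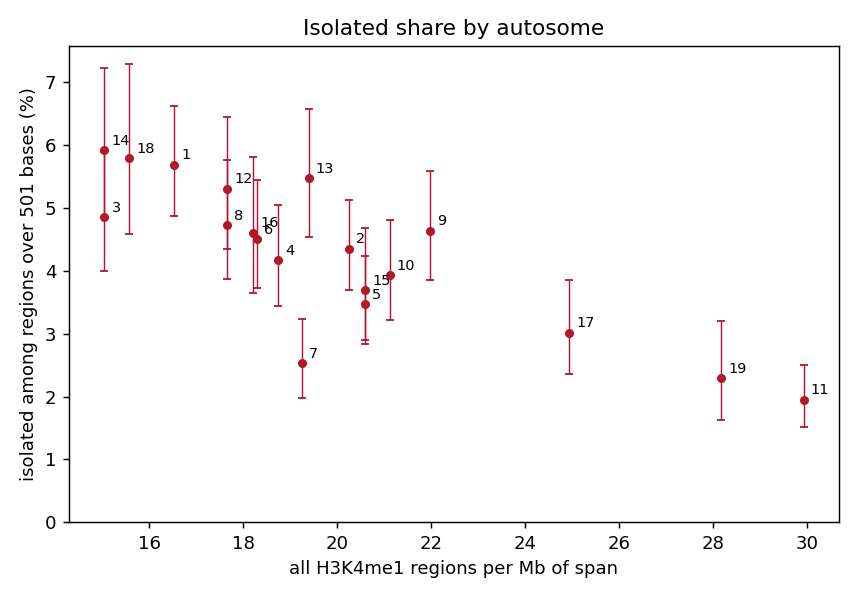
Isolated regions as a percent of regions over 501 bases (vertical axis, Wilson 95% intervals) against all H3K4me1 regions per Mb of span (horizontal axis) for 19 autosomes, labelled by number. Chromosomes 11, 19 and 17 combine high density with shares of 1.95, 2.29 and 3.02%; chromosome 7 lies below chromosome 13 at a like density.

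Isolated regions also had fewer regions around them at a larger scale. Within 500 kb on either side of the midpoint, isolated regions had a median of 16 other regions (25th and 75th percentiles 8 and 27), beside 40 (27 and 54) for regions with a neighbour within 50 kb. The free 50 kb on both sides lowers this number by construction. The median over all autosomal regions was 39, and 167 isolated regions (9.99%, Wilson 95% interval 8.64 to 11.5%) reached it. At least 20 others were present around 701 isolated regions (41.9%), beside 86.8% of the regions with a neighbour within 50 kb, and 65 isolated regions (3.89%) had none. The median length was 1450 bases (interval 1353 to 1549) with 20 or more others and 1389.5 (1221 to 1638) with 0 to 4, so length did not differ with the richness of the surroundings beyond these intervals. The richest surroundings, 74 other regions, were those of a region of 946 bases on chromosome 8 (73558703 to 73559648), with gaps of 127.4 and 169.6 kb.

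Many isolated regions had another isolated region next to them. Of the 1672, 805 (48.1%, Wilson 95% interval 45.8 to 50.5%) had another isolated region over 501 bases as a direct neighbour, and 125 had one on both sides. The others, 867, had none. Consecutive isolated regions formed 252 pairs and 88 longer runs. A shared gap frees a side of both its regions, so succession is built into the rule. How much of the 48.1% the rule alone would give was not computed. The share, the pairs and the runs therefore do not show that isolated regions cluster. The median length of the regions next to an isolated region was 1216.5 bases, and 18.0% of those neighbours were at 501 bases (Wilson 95% interval 16.8 to 19.4%). Next to the regions with a neighbour within 50 kb the values were 1529 bases and 13.8% (13.6 to 14.1%).

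The longest runs, chosen after their values were seen, lay on chromosomes 2 and 14. On chromosome 2, 9 consecutive isolated regions of 641 to 1906 bases lay within 2608.161 kb (174967495 to 177575655). On chromosome 14, 8 regions of 650 to 1092 bases made up the first 2832.097 kb of the marked span (5659467 to 8491563), with no other called region among them. Another run, of 6, lay on the same chromosome from 99998149 to 101337931. It differed in holding long members: its last 4 regions were 3954, 3951, 3229 and 4513 bases long.

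The place of a region in the deposited list gave a readout that the rule did not use. HOMER's findPeaks writes its regions by falling score, as background; the file header does not name the order of the list, so the place is given only as a place. It followed length closely, with a Spearman rank correlation of -0.97 over all 48130 regions, and was therefore read within classes of 250 bases of length, for regions under 5000 bases. On a scale where 0% is the first and 100% the last region of its class, isolated regions had a median place of 68.5% (interval 66.8 to 70.5%, n = 1642), beside 49.1% (48.6 to 49.6%) for the regions with a neighbour within 50 kb. Places in the last 25% of a class were held by 41.8% of isolated regions (39.4 to 44.2%) and places in the first 25% by 11.4% (9.998 to 13.1%). The list also ran in part by chromosome: entries that followed each other shared a chromosome in 69.8% of cases. From place 30001 to 42000 the share was 88.5%. Because the isolated share differed between autosomes, place and chromosome are mixed here and were not separated.

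The later place of isolated regions held in each range of length. The median place was 66.1% for isolated regions under 1000 bases, 67.8% for those of 1000 to 1999 bases and 73.0% for those of 2000 to 4999 bases. The other regions had 54.1, 46.7 and 48.5%. The classes of 250 bases started at 626 bases, so the cuts at 1000 and 2000 bases each fell inside a class. The values can therefore be compared within a range of length but not between ranges. For the 30 isolated regions of 5000 bases or more, the median position in the whole list was 3328, beside 2128 for the others, but they were also shorter, with a median of 6474.5 bases beside 7208. The earliest isolated region in the list, at position 1109, was the longest one, on chromosome 9.

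**Figure D5:**
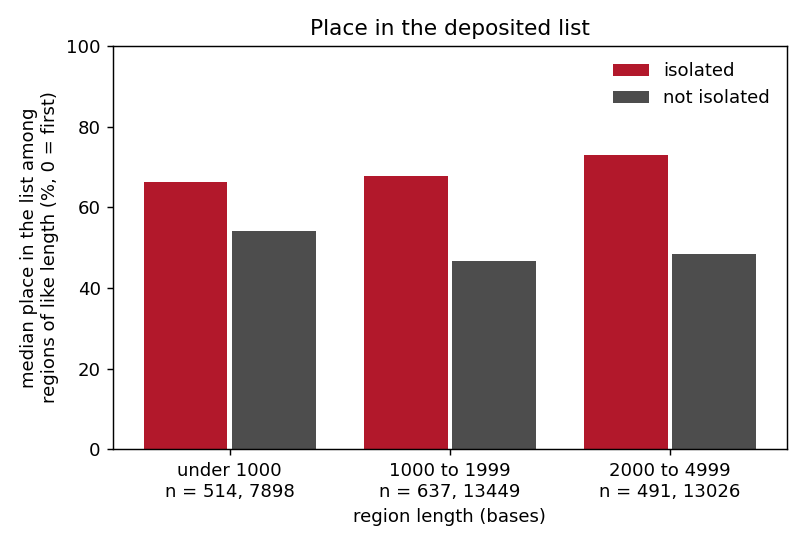
Median place in the deposited list among autosomal regions of like length (percent, 0 is first) in 3 ranges of length, for isolated regions (red) and regions with a neighbour within 50 kb (grey), with both numbers of regions under each pair of bars. The red bars are higher in each range, from 66.1 to 73.0%, beside 46.7 to 54.1% for the grey ones. The limits between ranges split length classes, so bars are comparable within a range only.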

How the data were processed

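H3K4me1 and input ChIP-seq libraries were made from 1 to 10 ng of DNA with 18 PCR cycles, cut at 300 bp (±25 bp) and read as single ends of 100 bases, per the labels' protocols. Bowtie 0.12.9 and HOMER 4.7 were used with the build mm9, per the submitters' processing notes. Per the file headers, findPeaks in histone style searched peaks of 500 bases, stitched them, and required at least 26 tags and 4-fold enrichment over input. The authors deposited a score of 1 for every region, which was not used.

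Regions were sorted by start within each autosome. A gap is the next start minus the previous end, and a missing side at a chromosome end counts as far. Positions are printed counting from 1. The members, lists and comparisons were chosen with earlier results of these data known. Named were the 10 longest and the 10 most isolated regions, the 5 just inside and just outside the gap limit, and the autosomes of highest and lowest share. With 1 library per group no test was made. Wilson intervals on shares and binomial intervals on medians are at 95%, cover counting error only and take each region as independent. Without molecular identifiers, PCR copies count as tags. The isolation rule was tested on simulated data. Alternatives covered the gap and length limits, the neighbours counted, chromosome ends and the comparison group. Planned results on genes, starts, GC content and motifs need mm9 sequence or annotation and were not run. Python 3.11.15, numpy 2.4.6, pandas 2.3.3, scipy 1.17.1 and matplotlib 3.10.9 were used.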

Additional observations from a re-analysis of the deposited data

How the results depend on the processing

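The number of isolated regions, 1672, was 3999 with gaps of at least 25 kb, 962 at 75 kb and 618 at 100 kb, by construction. Their median length, 1427.5 bases, was 1319 at 75 kb, 1327 at 100 kb, 1891.5 for lengths of at least 1000 bases and 1070 with the 501-base regions included. The share of at least 2000 bases, 31.2%, was 34.8% at 25 kb and 24.2% with the 501-base regions included. The median nearest gap, 83.7 kb, was 44.0 kb at 25 kb, 118.7 kb at 75 kb, 164.3 kb at 100 kb and 80.4 kb for lengths of at least 1000 bases. The difference in median length from the other regions, -363.5 bases, stayed negative under each alternative run: -314 at 25 kb, -466 at 75 kb, -453 at 100 kb and -221 against regions with a nearest gap of 10 to 50 kb. The isolated share of chromosome 14 over chromosome 11, 3.04, was 1.49 per Mb of span, 1.957 at 25 kb, 3.89 at 75 kb and 5.12 at 100 kb. The place in the list, examined after seeing the data, had a median of 68.2 and 66.5% in classes of 100 and 500 bases, and 65.6 and 71.0% at gaps of 25 and 100 kb. Measuring gaps only between regions over 501 bases gave 2204 isolated regions with a median of 1429.5 bases. Tag counts per region were not used, so which isolated regions lie near the calling threshold is unknown. No paired analysis was possible because each group held 1 sample and no test was made. Alternatives on transcription starts and GC content were not run, for want of mm9 annotation and sequence here.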

Other observations

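The run of 9 isolated regions on chromosome 2 held lengths in mirrored order, seen after the run was named. In order of position, 3 regions were 688, 1295 and 641 bases long (starts 175541494, 175868737 and 176193618), and the 3 that followed were 641, 1295 and 688 bases long (starts 176493543, 176583552 and 176785838). Each length thus occurred in a pair, equal to the base. The spacing was not mirrored, with gaps of 326.6 and 323.6 kb in the first set and 89.4 and 201.0 kb in the second. The regions of 688 bases stood next to each other in the deposited list, at positions 40037 and 40038, and those of 641 bases at 40315 and 40316. The regions of 1295 bases stood 1944 positions apart.

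All isolated regions were then searched for equal lengths within 3 Mb of each other on 1 chromosome. Of 3950 pairs of isolated regions that close, 7 (0.177%, Wilson 95% interval 0.086 to 0.365%) had equal lengths, and they involved 11 regions. Pairs share regions, so this interval is too narrow. No share for pairs farther apart or for other regions was set beside it, so whether 0.177% is unusual was not tested. On chromosome 14, 3 consecutive isolated regions were each 946 bases long (starts 26745547, 26885300 and 27024916), 139.8 and 139.6 kb apart from start to start, and held positions 32290, 32291 and 32292 of the list. The last pair, of 660 bases on chromosome 10 (starts 14264779 and 15111716), stood 270 positions apart. Consecutive entries of the list from place 30001 to 42000 lay on the same chromosome in 88.5% of cases. That share does not tell how often a given pair of regions from the same chromosome is adjacent in the list, which was not computed. Whether the DNA of these regions is repeated, and how tags that match several places were counted, was not tested.

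On chromosome X, which the rule leaves out, 80 of 1023 regions over 501 bases (7.82%, Wilson 95% interval 6.33 to 9.63%) were free for 50 kb on both sides, a higher share than on any autosome, with an interval that overlaps those of several. Their median length was 1357.5 bases, beside 1381 for the other regions of that chromosome. Per Mb of span they numbered 0.497, within the range of the autosomes. Chromosome X held 1194 called regions of any length, fewer than any autosome (1362 on chromosome 18, the lowest). A low region density raises the isolated share in part by construction, so the higher share on X was not separated from density.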
